A study of Homo sapiens with 8 samples.

Results

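The BCL2 family genes examined here were the 10 protein-coding genes BCL2, BCL2L1, MCL1, BCL2A1, BAX, BAK1, BCL2L11, BID, BBC3 and PMAIP1. A ChIP-seq peak was assigned to a gene when its summit, the base of highest enrichment, lay in the hg19 gene body or within 20 kb of either end. By this rule 338 of 235023 peaks were assigned, and 0 peaks fell into the windows of more than 1 gene. The cells were U937, a human leukemia line of the monocytic lineage, in which retroviral vectors had placed HA-tagged AML1-ETO or HA-tagged ETO2-GLIS2 under doxycycline control. A stable line selected as a single clone stood for each fusion protein, and all cells received 5 µg/ml doxycycline, for 12 h or 48 h. DNA precipitated with anti-HA beads gave 4 ChIP libraries, 1 per protein and time point and each with an input, so 8 libraries made up the series and no group had a replicate. All differences below are therefore values side by side, without a test. The lists hold neither read numbers nor expression values, so the cell type could not be checked from them. Read numbers of the libraries, which the study gives, were not used here, and no ChIP from uninduced cells was analysed here.

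Proteins of the BCL2 family decide whether the outer mitochondrial membrane stays intact. The anti-apoptotic members (BCL2, BCL-XL from BCL2L1, MCL1 and BFL-1 from BCL2A1) hold in check the pore-forming effectors BAX and BAK, and the BH3-only members (BIM from BCL2L11, BID, PUMA from BBC3 and NOXA from PMAIP1) release or activate the effectors. AML1-ETO keeps the Runt DNA-binding domain of AML1 and ETO2-GLIS2 keeps the zinc fingers of GLIS2, while both carry nervy homology regions of an ETO family protein, which mediate contacts with other proteins. ETO2-GLIS2 lacks the last of these regions. Blood cells, and leukemias in particular, depend on different anti-apoptotic members for survival.

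Several summits at these genes are shown first, because the results turn on them. The letters are the plus strand of GRCh37, the assembly of hg19, in a window of 200 bp centred on the summit (shortened at BCL2L1 and MCL1 to the bases outside untranslated exons). Capitals mark matches, on either strand, to Runt (TGTGGT or TGCGGT), GLIS (TGGGGGG), ETS (CCGGAAGT), AP-1 (TGAGTCA or TGACTCA), C/EBP (TTGCNNAA) or E-box (CAGCTG) letters, and a window without capitals held none of them. The BCL2 promoter window was shared by all 4 lists, whereas the BCL2 intron window was a summit of ETO2-GLIS2 at both times without an AML1-ETO peak.
BCL2 promoter, ETO2-GLIS2 48 h, chr18:60987567-60987766: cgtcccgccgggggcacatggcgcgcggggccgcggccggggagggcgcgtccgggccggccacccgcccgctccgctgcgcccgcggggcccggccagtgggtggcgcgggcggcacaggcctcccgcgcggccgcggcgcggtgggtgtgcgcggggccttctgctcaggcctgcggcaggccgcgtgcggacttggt
BCL2 intron, ETO2-GLIS2 48 h, chr18:60809187-60809386: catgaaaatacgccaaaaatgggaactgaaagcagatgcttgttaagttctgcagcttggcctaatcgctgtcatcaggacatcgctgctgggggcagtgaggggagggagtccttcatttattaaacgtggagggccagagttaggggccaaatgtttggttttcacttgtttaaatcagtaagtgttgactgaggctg

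The BCL2L1 promoter window lay under the member peak of best rank in the ETO2-GLIS2 lists, and the BCL2L1 intron window under a peak that ranked higher for AML1-ETO.
BCL2L1 promoter, ETO2-GLIS2 48 h, chr20:30311333-30311509: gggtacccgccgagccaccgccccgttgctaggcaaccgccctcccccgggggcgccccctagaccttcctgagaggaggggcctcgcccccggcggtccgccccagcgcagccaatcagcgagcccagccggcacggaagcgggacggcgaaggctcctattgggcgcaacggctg
BCL2L1 intron, AML1-ETO 48 h, chr20:30263237-30263436: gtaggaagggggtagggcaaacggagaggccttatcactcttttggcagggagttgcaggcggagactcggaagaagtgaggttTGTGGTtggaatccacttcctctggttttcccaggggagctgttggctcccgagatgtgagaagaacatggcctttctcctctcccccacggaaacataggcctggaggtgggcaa

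The BBC3 windows came from 1 region in which the summits of the fusion proteins stood apart, and the MCL1 and BCL2A1 windows held a GLIS or an AP-1 match close to the summit.
BBC3 intron, AML1-ETO 48 h, chr19:47729324-47729523: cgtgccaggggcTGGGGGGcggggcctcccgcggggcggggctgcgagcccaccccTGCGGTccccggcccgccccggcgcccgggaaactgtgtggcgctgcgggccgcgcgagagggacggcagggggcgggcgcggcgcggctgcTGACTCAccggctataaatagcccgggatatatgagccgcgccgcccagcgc
BBC3 inner start, ETO2-GLIS2 48 h, chr19:47733704-47733903: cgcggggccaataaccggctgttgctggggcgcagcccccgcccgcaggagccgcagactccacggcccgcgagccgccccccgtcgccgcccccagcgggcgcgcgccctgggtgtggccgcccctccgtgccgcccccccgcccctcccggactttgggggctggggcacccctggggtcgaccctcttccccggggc
MCL1 promoter, ETO2-GLIS2 48 h, chr1:150551824-150552006: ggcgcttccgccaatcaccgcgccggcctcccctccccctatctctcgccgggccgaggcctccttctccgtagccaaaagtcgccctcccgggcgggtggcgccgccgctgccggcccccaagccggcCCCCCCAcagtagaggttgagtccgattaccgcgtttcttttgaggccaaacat
BCL2A1 upstream, ETO2-GLIS2 48 h, chr15:80269840-80270039: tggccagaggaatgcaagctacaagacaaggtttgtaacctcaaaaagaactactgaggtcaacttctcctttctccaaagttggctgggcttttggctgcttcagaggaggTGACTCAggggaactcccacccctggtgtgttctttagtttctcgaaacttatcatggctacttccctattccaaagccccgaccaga

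All 10 genes had at least 1 peak in their window in each of the 4 lists. Over all 20163 protein-coding genes of GENCODE release 44, such a peak was present for 77.6% in the AML1-ETO list at 12 h, 80.3% in that at 48 h, 66.4% in the ETO2-GLIS2 list at 12 h and 66.0% in that at 48 h. The members held 94 peaks in the 12 h list of AML1-ETO and 143 in its 48 h list, against 52 and 49 ETO2-GLIS2 peaks. The AML1-ETO lists were also the longer ones, since the 4 lists held 70833, 105769, 28325 and 30096 peaks. When every list was cut to its 28325 strongest peaks, as many as the shortest list held, AML1-ETO had 45 and 43 member peaks and ETO2-GLIS2 had 52 and 44. The greater number of AML1-ETO peaks at these genes was thus not seen at equal list length. Per 100 kb of window, the median over the 10 members was 13.3, 21.1, 6.33 and 5.37 peaks in the same order of lists, beside 3.76, 5.75, 1.60 and 1.59 over all genes. BCL2 was the sparsest member in the AML1-ETO lists, with 3.38 and 5.07 peaks per 100 kb, and BCL2A1 the densest there, with 31.8 and 39.8.

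**Figure D1:**
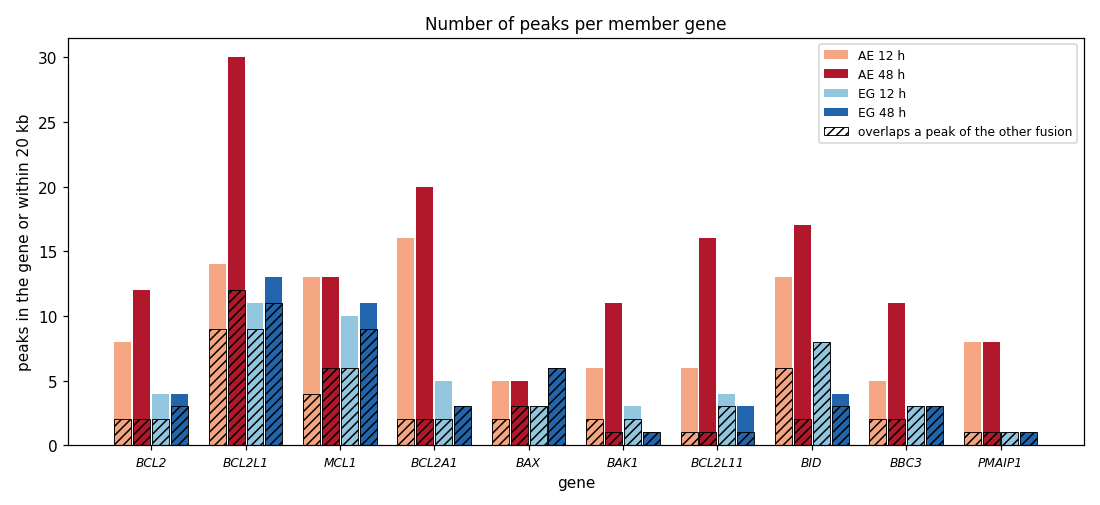
Peaks in each gene or within 20 kb of it (y axis, number), by gene and list, with 1 library behind each bar. Hatching marks peaks that overlap a peak of the other fusion protein at the same time: BCL2L1 reaches 30 AML1-ETO peaks at 48 h, and PMAIP1 has 1 ETO2-GLIS2 peak at each time.

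Promoters were judged by summits within 1 kb of an annotated transcript start of the same gene. All 10 members had one in the AML1-ETO list at 12 h and 8 had one at 48 h, beside 54.0% and 59.8% of all protein-coding genes. In the ETO2-GLIS2 lists 9 members had one at 12 h and 8 at 48 h, beside 42.8% and 45.7% of all genes. The genes BCL2, BCL2L1, MCL1, BAK1, BCL2L11, BBC3 and PMAIP1 had a promoter summit in all 4 lists, 7 of 10 members against 35.8% of all genes. At a −log10 q of at least 5, or at equal list length, BBC3 had none in the AML1-ETO lists, while the others named kept theirs. In the full lists the exceptions differed: BCL2A1 and BID lacked a promoter summit at 48 h for both fusion proteins, and BAX lacked one for ETO2-GLIS2 at 12 h. A definition by interval, chosen after the data were seen, gave other exceptions and turned the direction between the times. By it, AML1-ETO peaks covered a start of 7 members at 12 h and of all 10 at 48 h, beside 44.6% and 54.8% of all genes. ETO2-GLIS2 peaks covered a start of 7 members at 12 h and 9 at 48 h, beside 33.2% and 37.7%. BCL2A1, BAK1 and PMAIP1 were those without a covered start for AML1-ETO at 12 h.

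Some of these promoter peaks were among the strongest 10% of their list by −log10 q. For AML1-ETO they were those of BCL2, BCL2L1, BCL2L11 and PMAIP1 at both times, 4 of 10 members against 17.8% of all genes at 12 h and 29.5% at 48 h. For ETO2-GLIS2 they were those of BCL2L1 and BBC3 at both times, 2 of 10 members against 6.95% and 8.71%. By −log10 q BCL2L1 was the one member with such a promoter peak in every list, but its AML1-ETO promoter peak at 12 h stood at 9.62%, and by fold at 16.0%, outside the strongest 10%.

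BCL2, the founding anti-apoptotic gene, lies on the minus strand of chr18:60790579-60987361. Its promoter had a summit at 60987685 and 60987664 for AML1-ETO at 12 h and 48 h and at 60987692 and 60987667 for ETO2-GLIS2, all between 303 and 331 bp upstream of the gene start. The summits of the fusion proteins differed by 7 bp at 12 h and by 3 bp at 48 h. The 200 bp window printed above for this site is 85% G or C and held none of the motif letters searched. The AML1-ETO peak there ranked 3447 at 12 h and 4386 at 48 h, with 21.3-fold and 24.6-fold enrichment, and widened from 2454 to 5074 bp. The ETO2-GLIS2 peak ranked 4811 and 5447, with 13.9-fold and 13.4-fold enrichment, and was 1545 and 1272 bp wide. In their own lists this placed the AML1-ETO peak at 4.87% and 4.15% and the ETO2-GLIS2 peak at 17.0% and 18.1%.

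Inside BCL2 the pattern was different. ETO2-GLIS2 had a peak in intron 2 with its summit at 60809288 at 12 h and 60809287 at 48 h, 1 bp apart, which ranked 3951 and 3615 and so stood above its own promoter peak. It was 617 and 817 bp wide, with 13.1-fold and 19.0-fold enrichment. No AML1-ETO peak overlapped it, and the nearest AML1-ETO summit was 26294 bp away at 12 h and 20036 bp away at 48 h. AML1-ETO had 3 intron peaks of its own at each time, the highest at 60845924 at 48 h (rank 17351, 7.93-fold), and 4 peaks downstream of the gene at 12 h and 7 at 48 h. The highest of the downstream peaks had its summit at 60779108 at 12 h (rank 13534, 1388 bp) and 60779548 at 48 h (rank 16482, 1914 bp). ETO2-GLIS2 had 1 weak peak at this place, at 48 h, with rank 29806 of 30096.

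**Figure D2:**
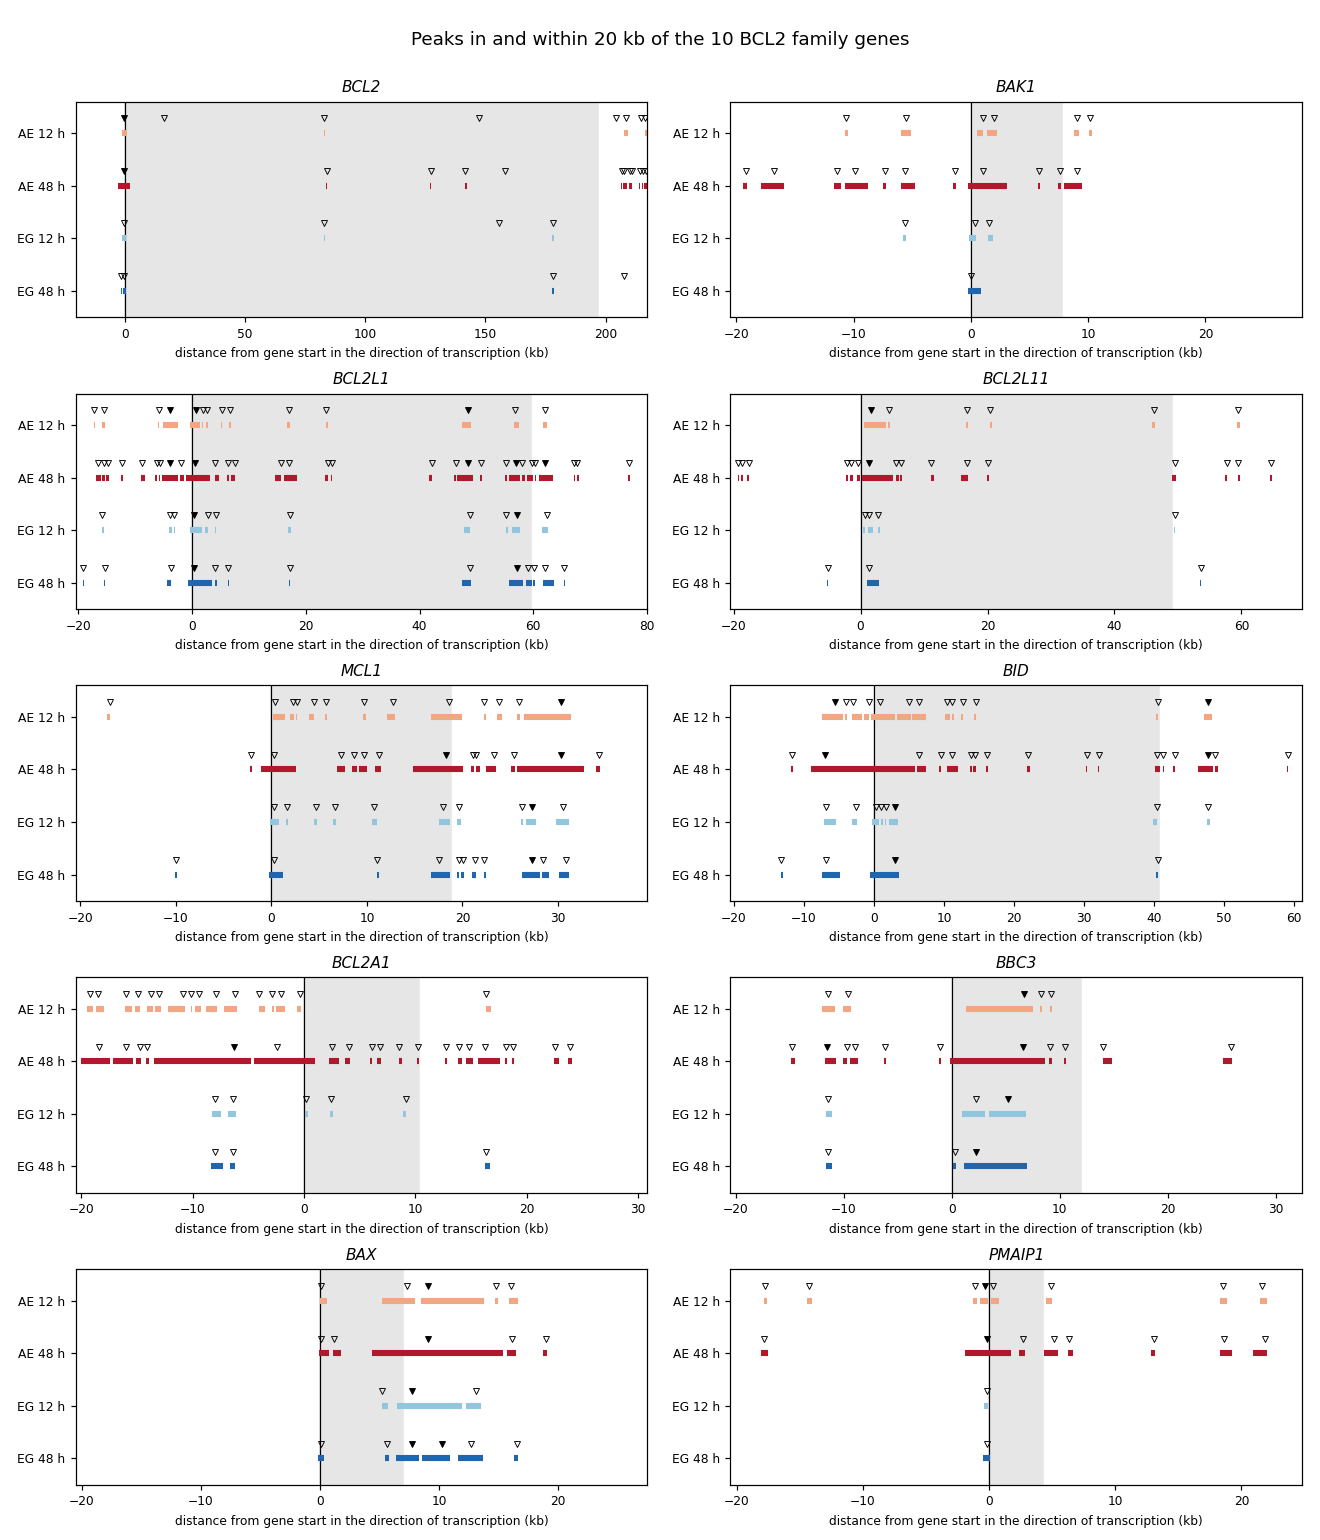
Peaks of each list (rows; AE, AML1-ETO; EG, ETO2-GLIS2) along the 10 genes, by distance from the gene start in the direction of transcription (x axis, kb). Grey marks the gene body, coloured bars the peak intervals, open triangles the summits and filled triangles summits in the strongest 10% of the list: AML1-ETO intervals at BCL2A1 and BID are wide, and PMAIP1 has its 1 ETO2-GLIS2 peak just before the gene start.

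BCL2L1, which encodes BCL-XL, lies on the minus strand of chr20:30252255-30311792 and carried the member peak of best rank in both ETO2-GLIS2 lists. At 48 h the ETO2-GLIS2 promoter peak had its summit at 30311410, 382 bp inside the gene, and ranked 3 of 30096, with 149-fold enrichment, a −log10 q of 1465 and a width of 4216 bp. At 12 h the summit was at 30311417, with rank 8 of 28325, 82.8-fold enrichment and a width of 2245 bp. The printed bases of this window held no GLIS, Runt, ETS, AP-1, C/EBP or E-box match. AML1-ETO had a promoter peak at the same place, with summits 245 bp away at 12 h (30311172) and 172 bp away at 48 h (30311238). Its rank rose from 6817 at 12 h, or 9.62% of the list, to 1475 at 48 h, or 1.39%, with 9.16-fold and 22.3-fold enrichment and widths of 1894 and 4257 bp.

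At other sites of BCL2L1 the order of the fusion proteins varied from site to site. In intron 2 the ETO2-GLIS2 summit at 30254616 and 30254619 stood at 6.79% of the list at 12 h and 4.95% at 48 h, while the best overlapping AML1-ETO peaks stood at 31.5% and 8.65%. Farther into the same intron, an AML1-ETO summit at 30263330 and 30263337 stood at 6.01% and 2.27%, and the overlapping ETO2-GLIS2 peaks at 25.5% and 30.6%. The AML1-ETO window at this second site held a Runt match, in capitals above, centred at -13.5 bp from the summit on the plus strand. An upstream AML1-ETO summit lay at 30315682 at both times, 3890 bp before the gene, at 3.32% of the list at 12 h and 4.68% at 48 h, with E-box and C/EBP matches in its window. The ETO2-GLIS2 peak overlapping it stood at 33.7% and 30.0%. The promoter and 1 intron site thus ranked higher within the ETO2-GLIS2 lists, and the other intron site and the upstream site within the AML1-ETO lists. In the whole window AML1-ETO had 14 and 30 peaks and ETO2-GLIS2 11 and 13.

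The ranks of BCL2L1 depended on the value that set them. Ranking by fold moved its best peak by more than 1.5 times in all 4 lists, and among the other members it did so for BAX in the AML1-ETO list at 12 h (from 9.87% to 15.2%). By fold enrichment instead of −log10 q, its best ETO2-GLIS2 peak stood at 0.635% of the list at 12 h and 0.12% at 48 h, against 0.0282% and 0.00997% by −log10 q. Its best AML1-ETO peak stood at 9.05% and 4.52% by fold, against 3.32% and 1.39%. Among peaks of 2.5- to 4-fold enrichment, the median −log10 q at BCL2L1 was 3.88 (8 peaks), 5.87 (16 peaks), 5.49 (5 peaks) and 2.32 (5 peaks) in the AML1-ETO lists at 12 h and 48 h and the ETO2-GLIS2 lists at 12 h and 48 h. For the other 9 members it was 3.17, 3.01, 2.82 and 1.86. The median fold of these BCL2L1 peaks was the lower one in each list, 2.89, 3.09, 3.55 and 2.96 against 3.40, 3.26, 3.70 and 3.45. The cause was not tested. Some of the peaks of the window were also nearer to other genes: upstream summits lay as near as 65 bp to a start of TPX2, which encodes a spindle assembly factor, and for downstream summits and those deep in intron 2 the nearest protein-coding start was that of COX4I2, a cytochrome c oxidase subunit gene.

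**Figure D3:**
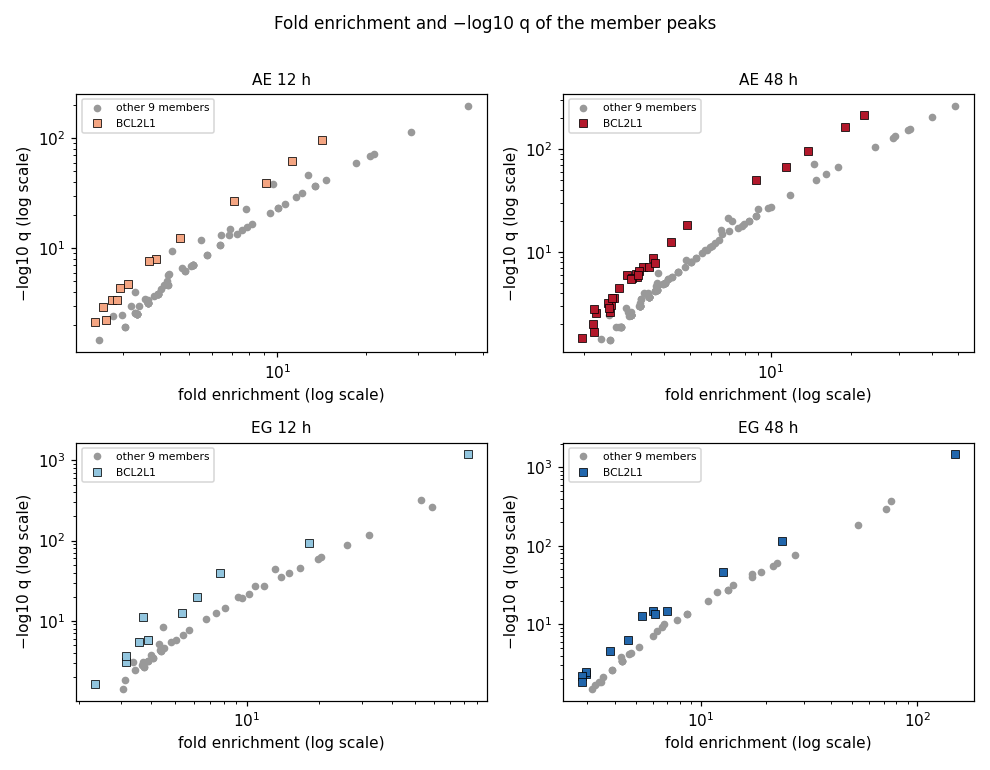
Fold enrichment (x axis, log scale) against −log10 q (y axis, log scale) of every member peak, 1 panel per list (AE, AML1-ETO; EG, ETO2-GLIS2), with BCL2L1 as coloured squares and the other 9 members in grey. Most squares lie above the grey points of the same fold, and the top square for ETO2-GLIS2 at 48 h is at 149-fold and 1465.

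MCL1, whose product is a short-lived anti-apoptotic protein, lies on the minus strand of chr1:150533371-150552214. Its promoter summits were at 150551824 (12 h) and 150551920 (48 h) for AML1-ETO and at 150551917 and 150551924 for ETO2-GLIS2, in exon 1 and between 290 and 390 bp inside the gene. A GLIS match lay in the windows of 3 of these 4 summits, the exception being AML1-ETO at 12 h. The AML1-ETO peak ranked 20400 at 12 h, or 28.8% of its list, and 13612 at 48 h, or 12.9%, and widened from 1296 to 3729 bp. Its enrichment was 4.38-fold and 10.0-fold, lower than that of ETO2-GLIS2 at both times. The ETO2-GLIS2 peak ranked 5849 and 5016, or 20.6% and 16.7%, with 11.8-fold and 14.1-fold enrichment. The strongest peaks of the MCL1 window were not at the gene but downstream, at starts of ADAMTSL4, which encodes an extracellular matrix protein. There AML1-ETO had summits at 150521893 and 150521884 with ranks 1845 and 1590, within 4 bp of an ADAMTSL4 start. ETO2-GLIS2 had lower-ranked summits near it, at 150521686 at 12 h (rank 7323, 207 bp from the AML1-ETO summit) and 150521414 at 48 h (rank 3826, 470 bp). Its strongest summits lay elsewhere under the same AML1-ETO peak, at 150524956 and 150524977, with ranks 543 and 408.

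BCL2A1, an anti-apoptotic gene of hematopoietic cells, lies on the minus strand of chr15:80253234-80263538. At 12 h 14 of 16 AML1-ETO peaks lay upstream, the best of them with its summit at 80274371 (rank 8898). All 16 of these 12 h peaks overlapped a peak of the 48 h list, in which 6 of 20 peaks were upstream and 8 downstream. The upstream ones included an interval of 8728 bp (chr15:80268256-80276983) that ranked 9016, the best of the gene in that list, and an interval of 5466 bp that ranked 13972 and reached over the gene start. AML1-ETO peaks covered 20.6% of the window at 12 h and 51.9% at 48 h, the largest such share of any member in that list. ETO2-GLIS2 covered 4.40% and 3.80%. Its best peak at 12 h was upstream, with a summit at 80269949 (rank 3846, 16.6-fold). At 48 h that site (80269940, rank 8726, 8.62-fold) ranked below a downstream peak at 80247205 (rank 6878, 10.8-fold), whose summit lay 45 bp from an AML1-ETO summit. The upstream summits lay 187 and 155 bp from the AML1-ETO summits at 80269762 and 80269785. An AP-1 match lay in both upstream ETO2-GLIS2 windows. For 1 downstream AML1-ETO summit at 48 h the start of ST20-MTHFS was nearer than any of BCL2A1. Peaks near the start were weak: a summit 360 bp upstream for AML1-ETO (34.4% of the list) and 1 in exon 1 for ETO2-GLIS2 (77.6%), both at 12 h.

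No promoter peak of the effector genes was among the strongest 10% of its list. BAX (plus strand, chr19:49458072-49465055) had AML1-ETO summits at 49458192 and 49458163, 6 and 9 bp from a start, at 34.4% and 32.9% of the lists, and an ETO2-GLIS2 summit at 48 h, at 49458184 and 67.9% of the list. The strong peaks of its window lay past the gene end, toward FTL, which encodes the ferritin light chain. The ETO2-GLIS2 summit there was at 49465778 at both times, with rank 390 at 12 h and 265 at 48 h, or 1.38% and 0.881%, and 52.8-fold and 75.2-fold enrichment. At 12 h the best AML1-ETO peak of the window had its summit at 49467169 (rank 6993). At 48 h AML1-ETO covered the region with 1 peak of 11059 bp (summit 49467159, rank 2632), where 3 of its 12 h peaks had stood, and its summit there lay 1381 bp from that of ETO2-GLIS2. Farther on, 5 summits over the lists were nearest to GYS1, a glycogen synthase gene, the closest at 133 bp. All 6 ETO2-GLIS2 peaks at 48 h and all 3 at 12 h overlapped an AML1-ETO peak.

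BAK1, the other effector gene (minus strand, chr6:33540324-33548070), had AML1-ETO promoter summits in intron 1 at 33547059 and 33547067, 994 and 986 bp from a start, just inside the 1 kb limit. These peaks ranked 16076 at 12 h, or 22.7%, and 15574 at 48 h, or 14.7%. The ETO2-GLIS2 summit moved from 33547714 (48.6% of the list) to 33548059 (36.3%), 6 bp from a start. Upstream, AML1-ETO had 2 peaks at 12 h and 7 at 48 h, the strongest with summits at 33553621 and 33553711. ETO2-GLIS2 had a peak at 33553647 there at 12 h, and at 48 h its promoter peak was its 1 peak in the window.

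Of the BH3-only genes, BCL2L11 (plus strand, chr2:111876955-111926021), which encodes BIM, had its main peaks at inner starts of the gene. The AML1-ETO peak had its summit at 111878578 at 12 h and 111878211 at 48 h, ranked 4410 and 3395, or 6.23% and 3.21%, and widened from 3424 to 4834 bp. The ETO2-GLIS2 peak had its summit at 111878310 and 111878319, ranked 6809 and 4053, or 24.0% and 13.5%, and widened from 814 to 1972 bp. The rank of the peak was thus higher at 48 h for both. In the whole window AML1-ETO had 6 peaks in the 12 h list and 16 in the 48 h list, and the peak just described was the 1 that overlapped an ETO2-GLIS2 peak at each time.

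BID (minus strand, chr22:18216904-18257536), a BH3-only gene whose protein links death receptors to mitochondria, had the widest member peak. In the 48 h list an AML1-ETO interval of 14812 bp, chr22:18251661-18266472, ranked 3278 and ran from intron 1 over the gene start to a summit at 18264524, 6988 bp upstream. At 12 h AML1-ETO had 7 separate peaks that overlapped this interval, with ranks between 5855 and 55278. ETO2-GLIS2 had 2 main sites in it at both times. The first, in intron 1, had summits at 18254570 and 18254603 with ranks 1505 and 2319, or 5.31% and 7.71%. The second, upstream, had summits at 18264386 and 18264370 with ranks 5852 and 3104, or 20.7% and 10.3%, the latter 154 bp from the AML1-ETO summit. At 12 h a further ETO2-GLIS2 peak had its summit on a start of BID, at 18257261, with rank 2970 and a GLIS match. At 48 h that place lay inside the intron 1 peak, which had grown from 1345 to 4249 bp. Downstream, the AML1-ETO summit at 18209830 and 18209806 carried a Runt match and ranked 3647 and 7117. It overlapped an ETO2-GLIS2 peak at 12 h (rank 8651) and none at 48 h. At the edges of the window 2 upstream summits were nearest to MICAL3 and 1 downstream summit to BCL2L13, all at 48 h.

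BBC3 (minus strand, chr19:47724079-47736023), which encodes PUMA, held the best-ranked AML1-ETO peak of any member. Its summit in intron 3 was at 47729380 at 12 h and 47729424 at 48 h, 1066 and 1022 bp from the nearest start of the gene and so just outside the 1 kb limit. The peak ranked 679, or 0.959%, and 968, or 0.915%, with 44.4-fold and 48.7-fold enrichment, and widened from 6207 to 8830 bp. Runt, GLIS and AP-1 matches all lay in the window printed above. ETO2-GLIS2 had 2 peaks under it at 12 h, with summits at 47730839 and 47733786 and ranks 2081 and 3118. At 48 h they were 1 peak of 5880 bp with its summit at 47733804, 4380 bp from the AML1-ETO summit, which ranked 813, or 2.70%, with 53.0-fold enrichment. Both proteins thus covered several starts of the gene while their summits stood kilobases apart. The AML1-ETO summits within 1 kb of a start belonged to weaker, separate peaks, at 66.7% of the list at 12 h and 67.8% at 48 h. A second site upstream was held by all 4 lists, with AML1-ETO summits at 47747504 and 47747583 (10.2% and 7.68% of the lists) and ETO2-GLIS2 summits at 47747454 and 47747513 (15.5% and 18.1%). Beyond it, 1 AML1-ETO summit at 48 h was nearer to CCDC9.

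PMAIP1 (plus strand, chr18:57567228-57571537), which encodes NOXA, had 1 ETO2-GLIS2 peak in its window at each time. Its summit was at 57567038 at 12 h and 57567070 at 48 h, 190 and 158 bp upstream of the gene, with ranks 10623 and 8726, or 37.5% and 29.0% of the lists. The AML1-ETO peak at this promoter had summits at 57566887 and 57567048, ranked 6448 and 2544, or 9.10% and 2.41%, and widened from 597 to 3648 bp, from 14.6-fold to 33.1-fold enrichment. At 48 h the summits of the fusion proteins lay 22 bp apart. The other 7 AML1-ETO peaks at either time had no ETO2-GLIS2 counterpart.

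Over all member peaks of a list, the overlap between the fusion proteins was close to that of the whole list. At 12 h 39 of 52 ETO2-GLIS2 member peaks shared 1 bp or more with an AML1-ETO peak, or 75.0% (95% exact binomial interval 61.1 to 86.0), beside 74.5% of the whole list. At 48 h it was 41 of 49, or 83.7% (70.3 to 92.7), beside 83.4%. In the other direction 31 of 94 AML1-ETO member peaks at 12 h, or 33.0% (23.6 to 43.4), and 32 of 143 at 48 h, or 22.4% (15.8 to 30.1), overlapped an ETO2-GLIS2 peak, beside 26.2% and 17.8%. The intervals cover counting error only and treat the peaks as independent, although the peaks cluster in the gene windows. Each interval held the value of its whole list. The genes themselves ranged widely, since 12 of 30 AML1-ETO peaks at BCL2L1 were shared at 48 h but 1 of 16 at BCL2L11 and 2 of 20 at BCL2A1.

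Stronger peaks were shared more often, at the members as in the whole lists. All 11 AML1-ETO member peaks in the strongest 10% of the 12 h list and 15 of 16 in that of the 48 h list overlapped an ETO2-GLIS2 peak, beside 85.8% and 84.0% of all peaks of that strength, and the exception was the peak downstream of BID. All 6 and 7 ETO2-GLIS2 peaks of that strength were shared too, beside 98.0% and 99.8%. In the weaker 50% of the lists, 4 of 41 and 3 of 61 AML1-ETO peaks were shared, beside 6.41% and 2.75%, and 14 of 25 and 13 of 20 ETO2-GLIS2 peaks, beside 57.0% and 68.9%. The stronger peaks were also wider. Median widths of AML1-ETO member peaks were 2648 and 4545.5 bp in the strongest 10% and 293 and 292 bp in the weaker 50%. For ETO2-GLIS2 they were 1822.5 and 2419 bp against 302 and 263 bp. The part of width in the overlap was not tested. By place, 13 of 16 ETO2-GLIS2 promoter peaks at 12 h and all 10 at 48 h were shared, beside 86.1% and 93.1% of all summits within 1 kb of a protein-coding gene's start. For AML1-ETO it was 8 of 17 and 8 of 12, beside 50.2% and 45.2%. Overlap did not mean a common summit: with summits required to lie within 200 bp, the shares of ETO2-GLIS2 member peaks were 30.8% at 12 h and 38.8% at 48 h.

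Between the time points, 50 of 143 AML1-ETO member peaks at 48 h, or 35.0% (27.2 to 43.4), overlapped a 12 h peak of the same protein, beside 36.8% of the whole list. For ETO2-GLIS2 it was 30 of 49, or 61.2% (46.2 to 74.8), beside 54.6%. Conversely 76 of 94 AML1-ETO member peaks at 12 h, or 80.9% (71.4 to 88.2), and 36 of 52 for ETO2-GLIS2, or 69.2% (54.9 to 81.3), overlapped a 48 h peak, beside 73.9% and 60.6%. Most AML1-ETO member peaks of 12 h were thus still called at 48 h, while most of those at 48 h had no 12 h counterpart. With every list cut to its strongest peaks at equal length, 76.7% of the AML1-ETO member peaks at 48 h had one. That cut changed list length and peak strength together, and their parts were not tested. The share of the window covered by AML1-ETO peaks was larger in the longer list of 48 h for all 10 members, from 2.35% to 4.85% at BCL2, for example, and from 8.43% to 19.4% at PMAIP1. For ETO2-GLIS2 it was larger at 7 members and smaller at BCL2, BCL2A1 and BAK1. The whole AML1-ETO list covered 50.9 Mb of the genome at 12 h and 96.0 Mb at 48 h, and the ETO2-GLIS2 list 17.2 and 20.1 Mb. The larger shares at the members thus went with wider coverage over the whole lists. Member peaks had median widths of 521, 484, 527 and 470 bp in the 4 lists, beside 360, 415, 382 and 399 bp over the whole lists.

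Of the motif letters, those of Runt and the E-box are the shortest. Runt matches were the most frequent at member summits, as over the whole lists. They lay in the 200 bp window of 21 of 94 AML1-ETO summits at 12 h, or 22.3% (14.4 to 32.1), and of 47 of 143 at 48 h, or 32.9% (25.2 to 41.2), beside 26.7% and 24.9% of all summits of those lists. At ETO2-GLIS2 member summits it was 11 of 52, or 21.2%, and 8 of 49, or 16.3%, beside 23.2% and 21.9%. The value at 48 h for AML1-ETO was the one whose interval did not hold that of the whole list, and in a window of 100 bp it was 22.4%, beside 14.5% of all. The interval counts peaks as independent, although they lie close together in 10 gene windows. With 6 motifs compared in each list, nothing is concluded from this value. GLIS matches lay at 7 summits in each AML1-ETO list (7.45% and 4.90%, beside 4.23% and 3.83%) and at 3 and 5 ETO2-GLIS2 summits (5.77% and 10.2%, beside 7.72% and 7.89%). ETS letters were found at 1 member summit, an AML1-ETO peak of PMAIP1 at 48 h, beside 0.579% of that list. A match describes these letters in these windows and is not a measured site.

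Beyond the 10 members, 32 further genes of the apoptosis pathway were examined at their promoters. A summit within 1 kb of a start was present for 24 and 25 of them in the AML1-ETO lists at 12 h and 48 h and for 19 and 20 in the ETO2-GLIS2 lists, beside 54.0%, 59.8%, 42.8% and 45.7% of all protein-coding genes. Of 12 other BCL2 family genes 7, 6, 5 and 7 had one, of 9 genes of mitochondrial execution (cytochrome c, APAF1, caspases and their partners) 8, 9, 7 and 7, of 4 inhibitor of apoptosis genes 3, 4, 3 and 2, and of 7 death receptor genes 6, 6, 4 and 4. No list had one for the family genes BCL2L10, BCL2L14, BNIP3, BOK and HRK or for the death receptor gene TNFRSF10A. By −log10 q the best rank in every list was that of CFLAR, which encodes the caspase-8 inhibitor c-FLIP. It ranked 332 and 771 in the AML1-ETO lists and 346 and 427 in the ETO2-GLIS2 lists. In the AML1-ETO lists this was above the best promoter peak of a member, BCL2 at 3447 and BCL2L1 at 1475. In the ETO2-GLIS2 lists it was below BCL2L1 at 8 and 3. By fold enrichment the death receptor gene TNFRSF10B stood above CFLAR in the AML1-ETO list at 12 h, at 41.7-fold against 33.7-fold.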

How the data were processed

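ChIP-seq maps the DNA bound by a protein. Per the labels and methods, the authors aligned reads to hg19 with Bowtie2 2.2.9, also used SAMtools 1.7, and called peaks with MACS2 2.1.1.20160309 for each ChIP library against an input. MACS2 settings and any removal of duplicate reads are not given in the sources used here. The deposited lists give each peak's interval, its fold enrichment (a linear ratio over the local background), its −log10 p-value and −log10 q-value, a score derived from the q-value, and the distance of the summit from the start of the peak. The study gives the read numbers of its libraries. They were not used here, and the lists were not adjusted for depth. A protocol label of the 12 h samples gives 48 h instead, and groups follow the titles.

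Analysis was limited to chromosomes 1 to 22, X and Y, which left out 60 to 131 peaks per list. They were ranked by −log10 q within a list, rank 1 being highest, and tied peaks share the better rank. Between lists of different length, ranks are compared as a percent of the list. Genes and starts came from the GRCh37 mapping of GENCODE release 44, and sequences from GRCh37. Peaks were shared if they overlapped by at least 1 bp. Shares have exact 95% Clopper-Pearson intervals (scipy 1.17.1), which cover counting error only. With 1 library per group no test was made. Counting functions were tested on simulated data. The genes and lists were chosen with earlier results of these data known. All peaks of the 10 members were used, and for each member the best-ranked peak of each list is named. Another gene is named where its start is nearer to a summit. Of the pathway genes, those without a promoter peak and the best-ranked are named. The alternatives tried were a −log10 q minimum of 5, lists of equal length, other windows around genes, starts and summits, joined peaks, other definitions of overlap, and rank by fold.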

Additional observations from a re-analysis of the deposited data

Results flagged for a closer look

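For 4 genes the number of peaks moved in opposite directions for the fusion proteins between 12 h and 48 h, and the difference was not tested, since each list stands for 1 library. At BCL2A1 AML1-ETO went from 16 to 20 peaks, a change of 4, and ETO2-GLIS2 from 5 to 3, a change of -2. At BAK1 the changes were 5 (6 to 11 peaks) and -2 (3 to 1). At BCL2L11 they were 10 (6 to 16) and -1 (4 to 3). At BID they were 4 (13 to 17) and -4 (8 to 4). With peaks within 1 kb joined, the opposite directions stood for BCL2A1 (5 to 8 and 4 to 2), BAK1 (4 to 9 and 3 to 1) and BID (5 to 12 and 5 to 4), but at BCL2L11 both counts were higher at 48 h (5 to 9 and 2 to 3). The AML1-ETO list grew from 70833 to 105769 peaks over the same time and the ETO2-GLIS2 list from 28325 to 30096. The parts of list length and of read depth, for which the lists were not adjusted, in these counts were not tested.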

How the results depend on the processing

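The counts of member peaks followed the filter. With a −log10 q of at least 5 they were 49, 68, 32 and 30 for AML1-ETO at 12 h and 48 h and ETO2-GLIS2 at 12 h and 48 h. At equal list length the AML1-ETO counts were 45 and 43. Within 5 kb of the genes AML1-ETO had 59 and 84 peaks and ETO2-GLIS2 had 32 at 48 h, and in gene bodies the counts were 40, 56, 32 and 19. Joining peaks gave 57 and 78 for AML1-ETO. Summits whose nearest coding start was the member's numbered 28 for ETO2-GLIS2 at 48 h. Shares of ETO2-GLIS2 peaks overlapping AML1-ETO were 90.6% (12 h) and 96.7% (48 h) at a −log10 q of at least 5, 30.8% and 38.8% for summits within 200 bp, and 94.7% in gene bodies at 48 h. Shares of AML1-ETO peaks overlapping ETO2-GLIS2 were 51.0% and 33.8% at a −log10 q of at least 5, 55.6% and 48.8% at equal length, 17.0% and 6.99% for an overlap of at least 50% of the peak, and 17.0% and 13.3% for summits within 200 bp. Shares of 48 h peaks also at 12 h were 52.9% (AML1-ETO) and 83.3% (ETO2-GLIS2) at a −log10 q of at least 5, 25.9% and 42.9% for summits within 200 bp, 76.7% and 18.9% for AML1-ETO at equal length and at 50% overlap, and 78.9% for ETO2-GLIS2 in gene bodies. The counts were lower because each alternative kept fewer peaks or, for joining, merged neighbouring ones. For the shares, the cause was not tested, apart from the overlap of at least 50% of the peak, which can only lower a share. Summits within 200 bp were counted whether or not the peaks overlapped. Counts of members and pathway genes with a promoter peak stayed within 1.5 times under every alternative run. No replicate could be left out, since each group has 1 library. Limits are lists not adjusted for depth (read numbers given by the study were not used here), the single clone per fusion protein, and motif letters in place of weight matrices.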
